A study of Mus musculus with 11 samples.

Results

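The genes described here are 35 mouse genes of the smooth muscle contractile apparatus and the actin cytoskeleton, whose products build, anchor or control actin and myosin filaments. They were taken by symbol, and all 35 were among the 32868 named genes of the deposited table. No threshold was set on their values, but the list was chosen with earlier results of these data known. Shares of the list set beside shares of all genes are therefore descriptions and not an independent test. Their levels were followed in primary lung fibroblasts of neonatal mice that had been sorted by flow cytometry and sequenced in bulk, 6 libraries of wild-type (WT) cells and 5 of PAD2KO cells. PAD2KO, per the genotype labels and the series title, stands for knockout of peptidylarginine deiminase 2, the enzyme encoded by Padi2 that turns arginine residues of proteins into citrulline. Batch 1 consisted of the libraries WT 1, 3 and 4 and PAD2KO 1, 2 and 3, and batch 2 of WT 5, 6 and 7 and PAD2KO 6 and 7. The labels use the word batch without saying which step it refers to. The strain, the allele, the age in days, the time in culture, the sorting gate and any treatment of these libraries are not given in the sources used here, although the title of the series speaks of TNF. The labels also do not say whether libraries of a group came from separate animals or cultures, so a p-value here measures only how far these libraries differ, and that spread may be technical.

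Smooth muscle contracts when calcium activates myosin light chain kinase, which phosphorylates the regulatory light chain of myosin so that myosin filaments pull on actin. Fibroblasts carry a smaller version of this machinery in stress fibres, and those that add smooth muscle actin and other smooth muscle proteins are known as myofibroblasts, the contractile cells of wound repair, fibrosis and, in the neonatal lung, of alveolar septation. Many of these genes are known targets of serum response factor (SRF), which binds DNA elements called CArG boxes together with myocardin or with the myocardin-related factors that move into the nucleus when free actin monomers are used up.

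Named genes received between 962633 counts in WT 7 and 1421243 counts in PAD2KO 2, and at these totals a library with 0 counts of a gene allows a level of up to 2.11 to 3.12 CPM (counts scaled to a library total of 1e6 counts of named genes; the limit is 3 counts and covers counting error only). Padi2 was too low to check the genotype labels, with 0, 0 and 0 counts in WT 1, 3 and 4, with 1, 2 and 0 in WT 5, 6 and 7, with 1, 0 and 4 in PAD2KO 1, 2 and 3, and with 0 and 4 in PAD2KO 6 and 7. All 10 fibroblast markers, among them Col1a1, Pdgfra and Thy1, were detected in every genotype and batch group, though not in every library. Their summed levels were 9930.2 to 22569 CPM per library. Tcf21 was at 0 in WT 6, WT 7 and PAD2KO 6, and Lum was as low as 1.56 CPM in WT 1. The summed epithelial, endothelial and striated muscle markers reached at most 41.2, 19.7 and 14.5 CPM. Pericyte markers summed to 393.9 to 563.7 CPM, with Higd1b at 0 in every library. All 10 smooth muscle markers used here (Acta2, Tagln, Myh11, Cnn1, Actg2, Des, Lmod1, Synpo2, Smtn and Myocd) belong to the 35 genes, so their level was no independent sign of smooth muscle cells. In bulk RNA, fewer cells of a kind and less RNA per cell cannot be told apart.

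Promoter sequences are shown first because they carry the element through which SRF acts. RefSeq entries for GRCm38.p6 were found for 31 of the 35 genes (not for Tagln, Myh11, Actg2 and Myocd), Irag1 under its older symbol Mrvi1. The 250 bases before each start site were searched for exact matches to the CArG box, a pattern of 10 letters that reads as a match on both strands, and no other motif was searched. A match was present before 7 of the 31 genes (22.6%), against 1.62% of the 27025 genes in the promoter table. The 7 were Cnn2, Myl9, Myl6, Vcl, Srf, Fhl1 and Fhl2. With the box in capitals, the first sequences are those of Myl9 (chr2:156775263-156775352, plus strand), Vcl (chr14:20929148-20929220, plus strand), Fhl1 (chrX:56779541-56779630, plus strand) and Cnn2 (chr10:79988504-79988593, plus strand), which were higher in PAD2KO than in WT cells of batch 2. Srf (chr17:46556175-46556284, minus strand), Myl6 (chr10:128493010-128493099, minus strand) and Fhl2 at 2 start sites (chr1:43196808-43196897 and chr1:43163962-43164032, minus strand) follow as the genes with a box that were not called there.
Myl9: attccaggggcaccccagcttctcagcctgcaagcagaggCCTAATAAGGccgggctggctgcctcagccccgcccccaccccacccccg
Vcl: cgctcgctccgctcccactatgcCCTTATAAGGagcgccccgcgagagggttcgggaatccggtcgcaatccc
Fhl1: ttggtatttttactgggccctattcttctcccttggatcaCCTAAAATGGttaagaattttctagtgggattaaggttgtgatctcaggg
Cnn2: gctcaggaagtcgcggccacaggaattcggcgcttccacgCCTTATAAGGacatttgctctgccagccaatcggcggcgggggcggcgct
Srf: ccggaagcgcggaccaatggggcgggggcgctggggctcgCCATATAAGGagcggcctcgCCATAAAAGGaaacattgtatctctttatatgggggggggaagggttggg
Myl6: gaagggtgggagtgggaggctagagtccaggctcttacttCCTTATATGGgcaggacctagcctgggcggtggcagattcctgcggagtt
Fhl2, first site: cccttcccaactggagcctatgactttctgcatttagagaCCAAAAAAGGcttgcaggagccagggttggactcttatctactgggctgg
Fhl2, second site: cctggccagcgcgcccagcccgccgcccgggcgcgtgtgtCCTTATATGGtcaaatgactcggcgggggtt
The box began 161 bases before the start site in Myl9, 227 in Vcl, 102 in Fhl1, 56 in Cnn2, 50 in Myl6 and 96 and 31 at the 2 start sites of Fhl2, and Srf carried a pair of boxes at 82 and 62 bases. A match is a description of letters and not a measured binding site. Whether a match goes with a call in batch 2 was not tested. The windows of Acta2 and Cnn1 held no exact match, which says only that these letters are not in those windows.

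Acta2, smooth muscle actin, had the highest mean level of the 35 genes per unit of transcript length, at 2863 TPM (transcript abundance scaled to length and to the same library total) over the 11 libraries with a range of 810.0 to 4725 TPM. The tropomyosin Tpm1 (2272 TPM), the essential myosin light chain Myl6 (2019 TPM) and the regulatory light chain Myl9 (1032 TPM) came next on the TPM scale. Myh11, the smooth muscle myosin heavy chain, averaged 32.1 TPM, below the 74 TPM of the non-muscle heavy chain Myh9. At the low end were Srf (9.3 TPM), Lmod1 (7.84 TPM), Pdlim3 (5.1 TPM), Synpo2 (3.77 TPM) and Myocd (1.54 TPM). Together the 35 genes took 2.71% to 2.88% of the counts of named genes in the WT libraries of batch 1, 2.25% to 2.86% in PAD2KO of batch 1, 1.33% to 1.5% in WT of batch 2 and 2.03% to 2.35% in PAD2KO of batch 2. The WT libraries of batch 2 gave the lowest share, with no overlap with any other group.

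**Figure D1:**
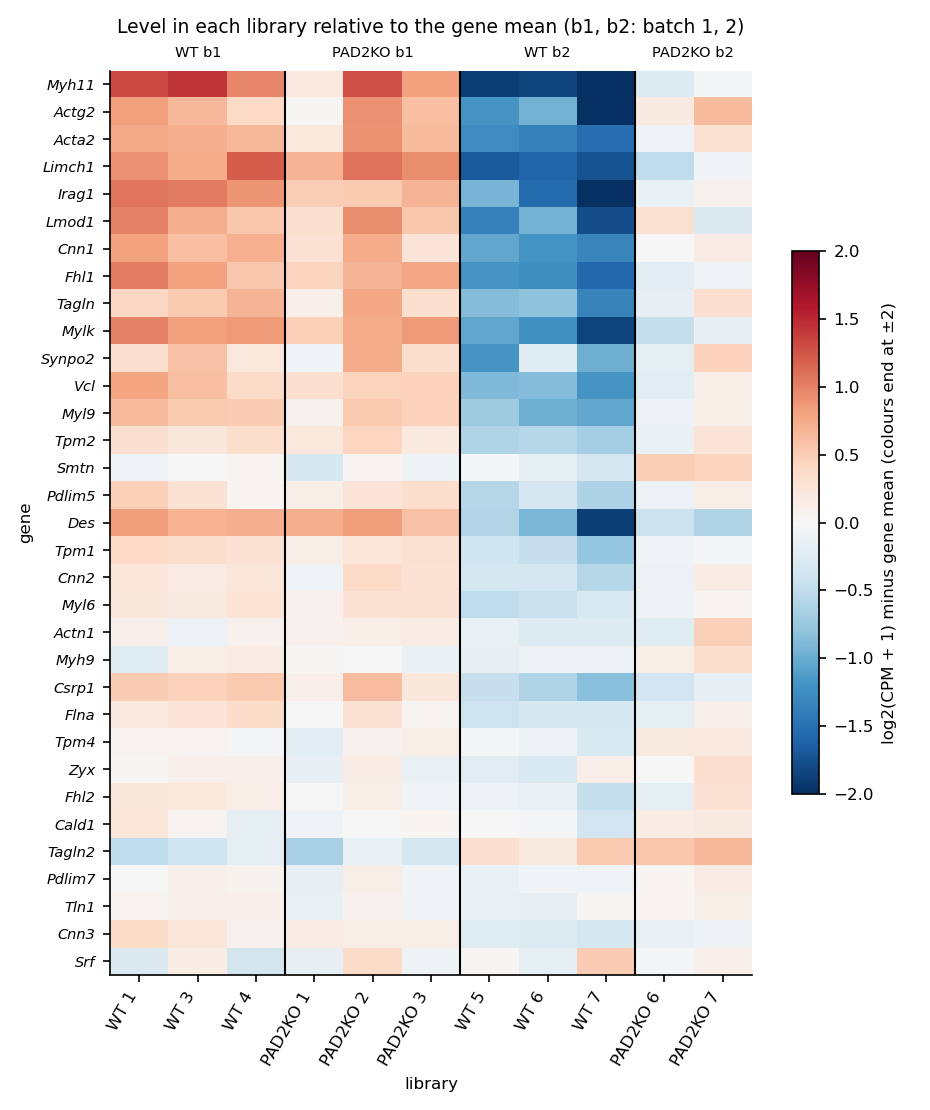
Level of the 33 tested genes (rows) in the 11 libraries (columns), as log2(CPM + 1) minus the mean of the gene over all libraries, with colours ending at ±2 and black lines between the genotype and batch groups. The 3 WT libraries of batch 2 are the lowest for most genes, while Tagln2 is higher in the libraries of batch 2.

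Of the 35 genes, 33 passed the filter on low counts and were tested. Myocd, the smooth muscle coactivator of SRF, gave 1, 1 and 5 counts in WT 1, 3 and 4, with 0, 6 and 2 in PAD2KO 1, 2 and 3, with 1, 0 and 0 in WT 5, 6 and 7 and with 0 and 4 in PAD2KO 6 and 7. In the 4 libraries at 0, the limit of 3 counts lay between 2.31 and 3.12 CPM. The LIM protein Pdlim3 gave 14, 13 and 12 counts in WT 1, 3 and 4, with 4, 2 and 8 in PAD2KO 1, 2 and 3, with 10, 3 and 1 in WT 5, 6 and 7 and with 5 and 3 in PAD2KO 6 and 7. Both genes were too low to be tested under the filter used. The genotypes overlapped in Myocd in both batches and in Pdlim3 in batch 2, while in batch 1 Pdlim3 was higher in every WT library (9.19 to 10.9 CPM) than in any PAD2KO library (1.41 to 6.06 CPM).

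In batch 2, genes of the contractile apparatus were higher in PAD2KO than in WT fibroblasts. Smooth muscle actin Acta2 rose 2.81-fold, calponin Cnn1 2.39-fold and smooth muscle myosin Myh11 3.45-fold. In all, 15 of the 33 tested genes (45.5%) were higher and 0 were lower in edgeR's quasi-likelihood test at a Benjamini-Hochberg adjusted p under 0.05, where 1.40% of all 9932 genes tested were higher and 1.71% lower (3.11% in either direction). The 15 were Acta2, Myh11, Myl9, Mylk, Tpm1, Tpm2, Cnn1, Cnn2, Tagln, Smtn, Lmod1, Vcl, Fhl1, Limch1 and Irag1. The median log2 fold change was 0.49 over the 33 genes, with a range of -0.08 to 1.79, and -0.01 over all genes. In 28 of the 33 genes (84.8%) both PAD2KO libraries lay above all 3 WT libraries, which was so for 15.7% of all genes. DESeq2 called 17 genes higher and 0 lower.

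The actins and myosins that slide past each other came first by size. Acta2 stood at 1326, 1229.6 and 1088 CPM in WT 5, 6 and 7 and at 2992 and 3851 CPM in PAD2KO 6 and 7, a log2 fold change of 1.49 (SE 0.15, adjusted p = 1.86e-05). Myh11 was measured at 31.9, 32.4 and 29.1 CPM in WT and 98.5 and 118 CPM in PAD2KO (1.79 on the log2 scale, SE 0.33, adjusted p = 0.0165). For both genes the lower PAD2KO library was more than the highest WT library, so the groups did not overlap. Actg2, the smooth muscle gamma actin, stood at 173, 203 and 91.4 CPM in WT and 441 and 605 CPM in PAD2KO and did not pass the test, although its groups did not overlap either (log2 fold change 1.72, SE 0.36, adjusted p = 0.0546). DESeq2 called it. The actin genes share much of their coding sequence, so their estimated counts depend on how the model split shared reads.

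The regulatory light chain and its kinase were higher in PAD2KO too. Myl9, which is phosphorylated to start contraction, was at 399.6, 331 and 319 CPM in WT and 601 and 709 CPM in PAD2KO (log2 fold change 0.90, SE 0.13, adjusted p = 6.47e-05). Mylk, the kinase that phosphorylates it, was at 211, 189 and 121 CPM against 313 and 390.5 CPM (1.00, SE 0.17, adjusted p = 0.00214). The groups of both genes did not overlap, and WT 7 was the lowest library for each. The essential light chain Myl6 and the non-muscle heavy chain Myh9, which are expressed in most cells, had log2 fold changes of 0.38 (adjusted p = 0.0591) and 0.37 (adjusted p = 0.137) and did not pass the test.

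Among the tropomyosins, which lie along the actin filament, Tpm1 and Tpm2 passed the test. Counts were taken per gene, so muscle and other transcript forms of these genes were not told apart. Tpm2 was at 319, 324 and 300.2 CPM in WT and 441 and 578 CPM in PAD2KO, a log2 fold change of 0.69 (SE 0.12, adjusted p = 0.00108). Tpm1 was at 2158, 2075 and 1669 CPM against 2678 and 2811 CPM (0.47, SE 0.11, adjusted p = 0.0121). For neither gene did the groups overlap, though PAD2KO 6 and 7 differed more in Tpm2 than in Tpm1. Tpm4, a non-muscle tropomyosin, had a log2 fold change of 0.32 (SE 0.11) and was not called.

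Proteins that bind the sides of actin filaments gave the following values. Calponin, Cnn1, was at 154, 137 and 126 CPM in WT and 316 and 352 CPM in PAD2KO (1.25 on the log2 scale, SE 0.14, adjusted p = 3.11e-06), which was the smallest adjusted p among the 33 genes. Its relatives Cnn2 and Cnn3, found in many cell types, had smaller fold changes. Cnn2 was at 965, 977 and 834 CPM against 1138 and 1372 CPM (log2 fold change 0.43, adjusted p = 0.0459), and Cnn3 had a log2 fold change of 0.15 (adjusted p = 0.60). Tagln, the smooth muscle transgelin, whose exons overlap those of Pcsk7 on the other strand, was at 215, 224 and 155 CPM in WT and 353 and 496 CPM in PAD2KO (1.09, SE 0.21, adjusted p = 0.0147). In Tagln, WT 7 was the lowest and PAD2KO 7 the highest library of the batch, while its broadly expressed relative Tagln2 had a log2 fold change of 0.25 and was not called. Smtn, smoothelin, was at 156, 139 and 125 CPM against 223 and 215 CPM (0.63, SE 0.13, adjusted p = 0.00438), with PAD2KO 6 slightly above PAD2KO 7. Lmod1, a leiomodin that nucleates actin filaments in smooth muscle, was at 7.25, 10.02 and 5.19 CPM in WT and 25 and 16.2 CPM in PAD2KO (1.41, SE 0.36, adjusted p = 0.0245). These Lmod1 levels rested on few counts, down to 5 in WT 7. Caldesmon, Cald1, had a log2 fold change of 0.29 (adjusted p = 0.265).

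**Figure D2:**
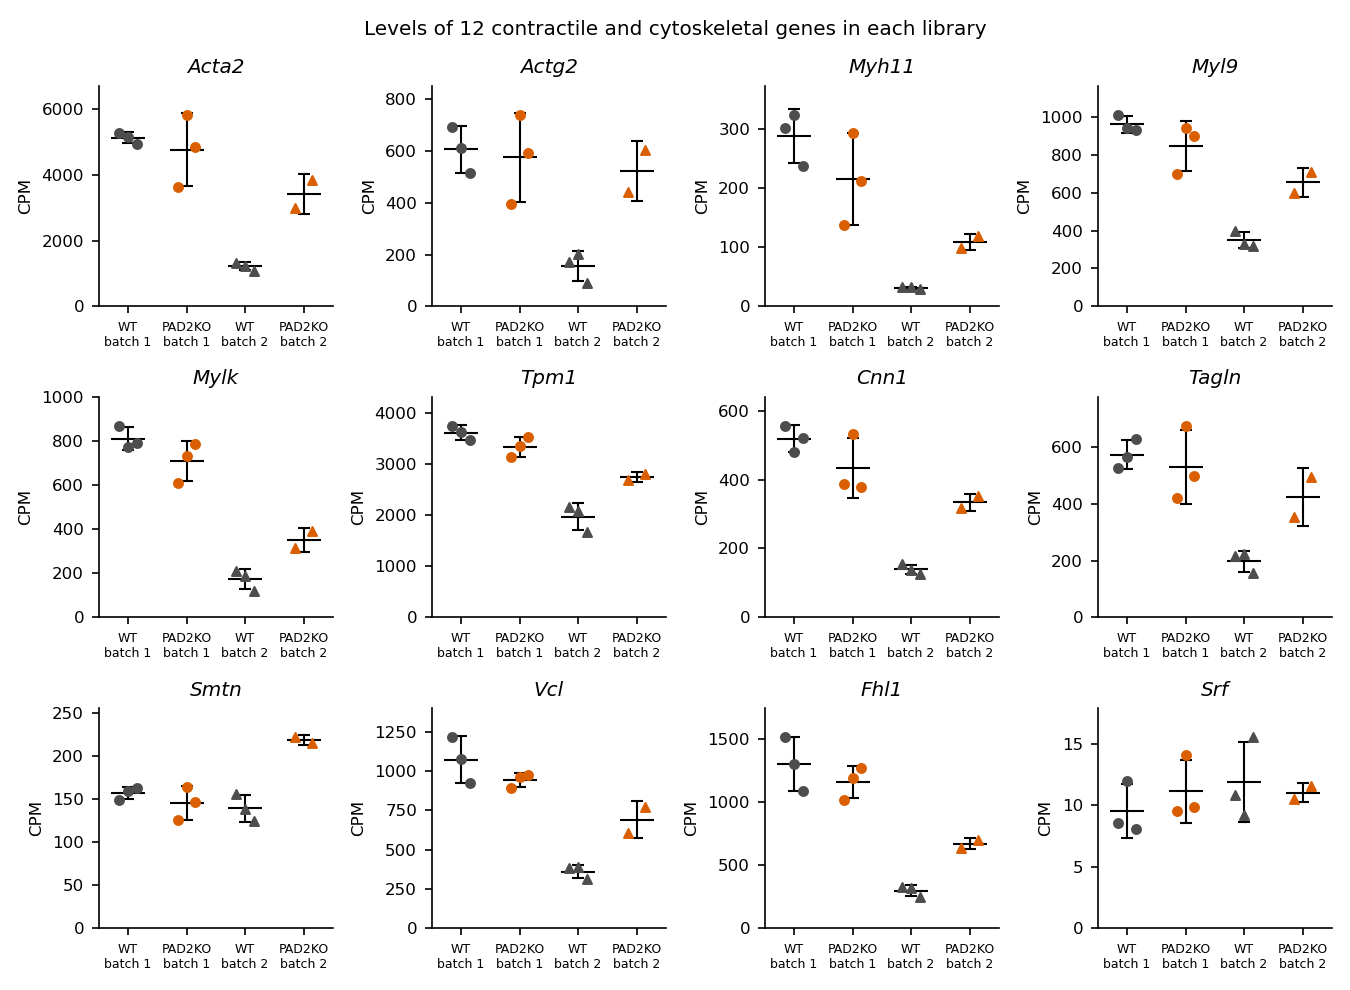
Level in CPM (vertical axes, linear from 0) of 12 genes in each library, with circles for batch 1, triangles for batch 2, grey for WT and orange for PAD2KO. Horizontal lines are group means and bars ± 1 SD (n = 3, 3, 3 and 2). In most panels the WT triangles are the lowest points. The PAD2KO triangles lie between them and all circles in Myh11, Mylk, Tpm1, Cnn1, Vcl and Fhl1. In Acta2, Actg2, Myl9 and Tagln they reach into the range of batch 1. Smtn is highest in PAD2KO of batch 2, and Srf overlaps between all groups.

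Proteins that anchor actin bundles to membranes and to the matrix were divided. Vinculin, Vcl, which joins actin to integrin and cadherin contacts and whose exons overlap those of Ap3m1 on the other strand, was at 383, 387 and 313 CPM in WT and 606 and 773 CPM in PAD2KO (log2 fold change 0.93, SE 0.13, adjusted p = 6.39e-05). Filamin, Flna, which crosslinks actin into nets, was at 1929.8, 2044 and 2014 CPM against 2273 and 2744 CPM and did not pass the test (0.32, SE 0.11, adjusted p = 0.129). Both genes were higher in each PAD2KO library than in any WT library. Zyxin (Zyx, log2 fold change 0.30), talin (Tln1, 0.17) and alpha-actinin (Actn1, 0.38) were not called. Neither were desmin (Des, 0.49), the intermediate filament of muscle, and Synpo2 (0.96), an actin-bundling protein of muscle. In Des the groups overlapped, with 64.4 to 159.6 CPM in WT and 159 to 178 CPM in PAD2KO.

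LIM domain proteins, which shuttle between actin structures and the nucleus, gave calls for some members. Fhl1 was at 329, 318 and 251 CPM in WT and 641 and 703 CPM in PAD2KO (log2 fold change 1.15, SE 0.14, adjusted p = 7.34e-06). Limch1, which activates non-muscle myosin, was at 10.9, 11.6 and 10.4 CPM against 25.8 and 35.6 CPM (1.47, SE 0.28, adjusted p = 0.00238). In both, each PAD2KO library was above every WT library. Pdlim5 was at 115, 136 and 112 CPM in WT and 159 and 189 CPM in PAD2KO and just missed the threshold (0.51, adjusted p = 0.0515). Csrp1, Fhl2 and Pdlim7 had log2 fold changes of 0.34, 0.29 and 0.17 and were not called. Irag1, the membrane protein through which cyclic GMP-dependent kinase restrains calcium release in smooth muscle, was at 38.4, 24.7 and 15.6 CPM in WT and 67 and 78.9 CPM in PAD2KO (1.42, SE 0.21, adjusted p = 0.000159). The 2 values of PAD2KO both exceeded the highest WT value.

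Srf itself was at 10.9, 9.25 and 15.6 CPM in WT and 10.5 and 11.6 CPM in PAD2KO, with a log2 fold change of -0.08 (SE 0.38) from 15, 12 and 15 counts in WT 5, 6 and 7 and 13 and 15 counts in PAD2KO 6 and 7. It was the only one of the 33 genes with a fold change below 0 in this comparison, and its groups overlapped.

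**Figure D3:**
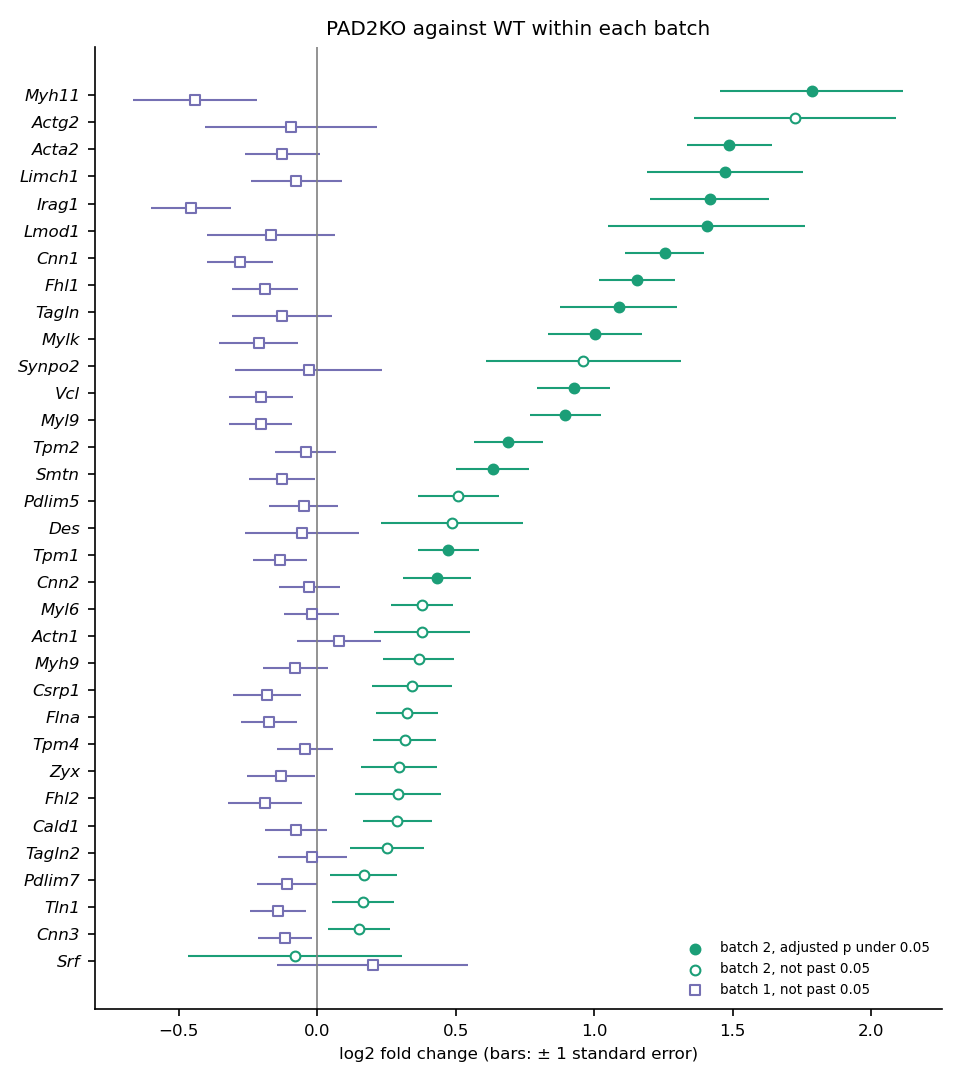
Log2 fold change of PAD2KO against WT (horizontal axis) for the 33 tested genes, in batch 2 (circles, filled where the adjusted p was under 0.05) and in batch 1 (squares), with bars of ± 1 standard error. In batch 2, 32 genes lie above 0 and 15 are filled, while 31 squares of batch 1 lie below 0 and none is filled.

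The number of genes called in batch 2 depended on PAD2KO 7, which lay above PAD2KO 6 in 30 of the 33 genes (90.9%, against 47.7% of all genes). Without PAD2KO 7, which leaves 1 PAD2KO library in the batch whose spread is assumed to be that of the other groups, 6 of the 33 genes were called higher (Acta2, Cnn1, Fhl1, Irag1, Myl9 and Vcl). These same 6 were called in each of 11 refits that left out 1 library. Among these refits, Tagln, Tpm1, Tpm2, Smtn, Mylk and Limch1 lost their call only without PAD2KO 7, their highest adjusted p over the refits being 0.191, 0.236, 0.191, 0.0688, 0.0861 and 0.15. Myh11 lost it without WT 5, WT 6, WT 7 or PAD2KO 7, at log2 fold changes of 1.64 to 1.92 over all refits. Lmod1 (1.08 to 1.68) lost it without WT 5, WT 7, PAD2KO 6 or PAD2KO 7, and Cnn2 (0.28 to 0.57) without WT 3, WT 5, WT 6, WT 7, PAD2KO 3 or PAD2KO 7. With offsets from the deposited gene lengths, Tagln, Cnn2, Lmod1 and Limch1 were not called, and in a fit of the libraries of batch 2 alone Cnn2 and Lmod1 were not.

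Markers of other cells were set beside this difference. In batch 2, summed pericyte markers were 452.5 to 525.6 CPM in WT and 393.9 to 419.1 CPM in PAD2KO. The sum was mostly Pdgfrb, which overlapped (194.3 to 260.7 CPM in WT, 218.8 to 223.6 CPM in PAD2KO), and Kcnj8. Kcnj8 was lower in PAD2KO (149.3 to 174.0 CPM) than in WT (191.5 to 251.3 CPM). The low markers Rgs5 and Notch3 were lower without overlap too, while Cspg4, Abcc9 and Cox4i2 overlapped. Mesothelial markers overlapped (65.4 to 133.4 CPM in WT, 86.6 to 129.2 CPM in PAD2KO). Leukocyte markers reached 221.3 CPM in WT 7, mostly from the macrophage genes Lyz2 (158.9 CPM) and Adgre1 (43.6 CPM), and 31.9 to 63.8 CPM in the other libraries of batch 2, with Cd52 at 0 in every library. WT 7 was the lowest of the 5 libraries of the batch in 24 of the 33 genes (72.7%, against 26.3% of all genes). Without WT 7, 13 of the 33 genes were called higher, against 0.835% of all genes in that refit. The summed fibroblast markers were 11359 to 12015 CPM in WT and 9930.2 to 10778 CPM in PAD2KO, but their members were divided. Col3a1, Fn1, Dcn, Col1a2 and Pdgfra were lower in PAD2KO without overlap. Col1a1 and Thy1 were higher without overlap, and Vim, Lum and Tcf21 overlapped. The part of such shifts in the result was not tested.

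In batch 1 the same genes showed no difference between genotypes that passed the test. Of the 33 genes, 0 were higher and 0 lower, where 13 of all genes were called (0.131%; 0.0201% higher and 0.111% lower). DESeq2 called 0 as well, and at an unadjusted p under 0.05 there were 0 higher and 2 lower (2.81% of all genes were lower by that measure). The median log2 fold change was -0.13 over the 33 genes and 0.00 over all genes, and 31 of the 33 had a fold change below 0, as 50.3% of all genes did. In 2 genes, Irag1 and Fhl2, all PAD2KO libraries lay below all WT libraries, which was so for 5.09% of all genes. The reverse held for 0 of the 33 genes and for 6.34% of all genes.

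Acta2 was at 5284, 5165 and 4952 CPM in WT 1, 3 and 4 and at 3625, 5833 and 4862 CPM in PAD2KO 1, 2 and 3 (log2 fold change -0.13, SE 0.14). Actg2 was at 692, 612 and 513 CPM against 395, 739 and 590.4 CPM (-0.09, SE 0.31). In both actins PAD2KO 1 was the lowest and PAD2KO 2 the highest library of the batch, so the WT libraries lay inside the PAD2KO range. Myh11 was at 302, 324 and 237 CPM in WT and 138, 293 and 212 CPM in PAD2KO (-0.44, SE 0.22, adjusted p = 0.909). Myl9 was at 1013, 943 and 931 CPM against 697, 943 and 901 CPM (-0.20), and Mylk at 869.6, 773 and 789 CPM against 611, 732 and 788 CPM (-0.21). PAD2KO 1 was again the lowest library in these 3 genes, and the groups overlapped.

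Tpm1 was at 3747, 3621 and 3465 CPM in WT and 3126, 3349.9 and 3528 CPM in PAD2KO, and Tpm2 at 604, 566 and 616 CPM and 557, 648 and 550.2 CPM, with log2 fold changes of -0.13 and -0.04. Cnn1 was at 556, 479 and 521 CPM against 387, 533 and 377 CPM (-0.28, SE 0.12, adjusted p = 0.813). Cnn2 was at 1458, 1394 and 1467 CPM against 1180.2, 1608 and 1506 CPM (-0.03). The WT and PAD2KO values of these tropomyosins and calponins overlapped. Tagln was at 526, 567 and 629 CPM in WT and 421, 676 and 498 CPM in PAD2KO (-0.13). Smtn was at 149, 159.8 and 163 CPM against 126, 165 and 147 CPM (-0.13), and Lmod1 at 41.2, 33.9 and 29.8 CPM against 25.3, 39.4 and 29.6 CPM (-0.17). In each of these 3 genes PAD2KO 1 was the lowest of the 6 libraries.

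Vcl was at 1217, 1075 and 921 CPM in WT and 894, 961 and 975 CPM in PAD2KO (-0.20), and Flna at 2920.1, 3075 and 3303 CPM and 2551, 3139.5 and 2648 CPM (-0.18). Fhl1 was at 1521, 1307 and 1089 CPM against 1019, 1193 and 1273 CPM (-0.19), and Pdlim5 at 239.6, 209.98 and 176 CPM against 186, 207 and 221 CPM (-0.05). All 4 overlapped between genotypes. Limch1 was at 70.8, 62.9 and 87 CPM in WT and 60.2, 79.5 and 71.2 CPM in PAD2KO (-0.08). Irag1 was at 156, 153 and 138 CPM against 105, 107 and 119 CPM (-0.46, SE 0.15, adjusted p = 0.405), the fold change farthest from 0 among the 33 genes in this batch. Srf was at 8.56, 12 and 8.05 CPM in WT and 9.5, 14.1 and 9.85 CPM in PAD2KO (0.20, SE 0.35). With Actn1 (0.08), Srf had a fold change above 0, whereas that of the other 31 genes was below 0.

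Whether the genotype difference itself differed between batches was tested with the interaction of genotype and batch. For 12 of the 33 genes (36.4%) the difference of PAD2KO from WT was more positive in batch 2 than in batch 1, and for 0 it was more negative, where 0.665% and 0.957% of all genes were called (1.62% in either direction). The 12 were Acta2, Myh11, Myl9, Mylk, Tpm1, Tpm2, Cnn1, Smtn, Vcl, Fhl1, Limch1 and Irag1. DESeq2 called 14 and 0. The median interaction was 0.56 on the log2 scale over the 33 genes and -0.01 over all genes. Cnn1 differed by 1.53 (SE 0.19, adjusted p = 8.53e-05), Irag1 by 1.87 (SE 0.26, adjusted p = 0.000165), Fhl1 by 1.34 (SE 0.18, adjusted p = 0.000165) and Acta2 by 1.61 (SE 0.21, adjusted p = 0.00048). Vcl (1.13, SE 0.18, adjusted p = 0.000483) and Myl9 (1.10, SE 0.17, adjusted p = 0.000483) completed the 6 genes that kept the call in all 11 refits without 1 library, the same 6 as in batch 2. Myh11 had the widest interaction (2.23, SE 0.40, adjusted p = 0.0229) and lost the call in 6 of those refits. Among these refits, Mylk and Limch1 lost it only without PAD2KO 7 (adjusted p = 0.0872 and 0.199), Tpm2 without PAD2KO 3 or 7, Tpm1 in 4 refits and Smtn in 6. Without PAD2KO 7 the count was 6. With offsets from the deposited gene lengths 6 genes were called as well, but not the same ones: Acta2, Cnn1, Fhl1, Irag1 and Vcl with Myh11, while Myl9, Mylk, Tpm1, Tpm2, Smtn and Limch1 were not called. Tagln (1.21, adjusted p = 0.0531), Lmod1 (1.57, adjusted p = 0.0541), Actg2 (1.82, adjusted p = 0.16) and Srf (-0.28, adjusted p = 0.892) did not pass.

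When both batches were fitted with additive terms for batch and genotype, 0 of the 33 genes were called in either direction (19 of all genes, 0.191%; 0.0201% higher and 0.171% lower). DESeq2 also called 0, and 1 of the 33, Tpm2, was higher at an unadjusted p under 0.05 (3.28% of all genes were). The median was 0.18, and Acta2 had a log2 fold change of 0.61 (SE 0.31, adjusted p = 0.727).

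Batch 2 was then compared with batch 1 within each genotype. These comparisons use the same libraries as the genotype comparisons above, so their results are not independent of each other. In WT cells, 23 of the 33 genes (69.7%) were lower in batch 2 and 1, Tagln2, was higher, where 10.6% of all genes were lower and 11.7% higher (22.3% in either direction). The median log2 fold change was -0.85 over the 33 genes and 0.00 over all genes. In 27 genes all 3 WT libraries of batch 2 lay below all 3 of batch 1 (19.2% of all genes), and in 1 above them (17.5%). In PAD2KO cells, 8 of the 33 genes were lower (Myh11, Mylk, Des, Vcl, Csrp1, Fhl1, Limch1 and Irag1) and 2 higher (Smtn and Tagln2), against 9.13% and 9.52% of all genes (18.7% in either direction). Their median was -0.20, and -0.02 over all genes. In 13 genes both PAD2KO libraries of batch 2 lay below all 3 of batch 1 (25.4% of all genes), and in 5 above (20.3%).

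Myh11 fell from 287 ± 45.3 to 31.1 ± 1.78 CPM (mean ± SD, n = 3 and 3) in WT, a log2 fold change of -3.18 (SE 0.28, adjusted p = 1.22e-05), and from 214 ± 77.8 to 108 ± 14 CPM (n = 3 and 2) in PAD2KO (-0.95, SE 0.27, adjusted p = 0.0365). Acta2 fell in WT from 5134 ± 168 to 1215 ± 120.1 CPM (-2.06, SE 0.14, adjusted p = 5.19e-09), while in PAD2KO it was 4773 ± 1106 and 3421 ± 608 CPM and was not called (-0.44, adjusted p = 0.0563). The interaction given above is the test of the difference between these 2 changes. Limch1 was 73.6 ± 12.3 and 10.9 ± 0.591 CPM in WT (-2.70, SE 0.23, adjusted p = 2.93e-10) and 70.3 ± 9.69 and 30.7 ± 6.88 CPM in PAD2KO (-1.16, SE 0.21, adjusted p = 0.000213). Mylk (-2.19 in WT and -0.98 in PAD2KO), Fhl1 (-2.10 and -0.75), Irag1 (-2.43 and -0.56) and Vcl (-1.54 and -0.41) fell in both genotypes on the log2 scale. The change was farther from 0 in WT than in PAD2KO for each of these genes. Des (-1.75 and -1.21) and Csrp1 (-1.09 and -0.57) fell in both as well, and their interaction was not called. Cnn1 (-1.87), Actg2 (-1.92), Lmod1 (-2.15), Tagln (-1.50), Myl9 (-1.43), Tpm2 (-0.90) and Tpm1 (-0.85) were called lower in WT and not called in PAD2KO.

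Tagln2 in both genotypes and Smtn in PAD2KO were called in the other direction. Tagln2 rose in WT from 306 ± 35.5 to 503 ± 61.4 CPM (log2 fold change 0.74, SE 0.12, adjusted p = 3.87e-05) and in PAD2KO from 305 ± 53.8 to 601 ± 27.5 CPM (1.01, SE 0.13, adjusted p = 3.33e-06). Smtn rose in PAD2KO from 146 ± 19.4 to 219 ± 5.55 CPM (0.62, SE 0.13, adjusted p = 0.0010) and stood at 158 ± 7.32 and 139.8 ± 15.7 CPM in WT (-0.14, adjusted p = 0.447). Of the 33 genes, 8 were called in neither genotype. Besides Srf they were Myh9, Tpm4, Cald1, Zyx, Tln1, Actn1 and Pdlim7, with log2 fold changes of -0.22 to -0.12 in WT and 0.08 to 0.32 in PAD2KO. For Srf they were 0.30 and 0.02.

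Of the 24 calls in WT, 22 held in all 11 refits without 1 library. Synpo2 lost its call without WT 5 (adjusted p = 0.0592) and Fhl2 in 5 of the refits. Of the 10 in PAD2KO, 5 did (Tagln2, Smtn, Mylk, Limch1 and Fhl1), and without PAD2KO 6 the number of genes called lower was 4. Des lost its call without PAD2KO 7, Csrp1 without PAD2KO 2 or 6, Irag1 without PAD2KO 3, 6 or 7, Vcl without PAD2KO 2, 3 or 6, and Myh11 in 7 of the refits, with highest adjusted p-values of 0.0739, 0.106, 0.244, 0.377 and 0.209. Mesothelial markers summed to 296.4 to 487.1 CPM in WT of batch 1 and 65.4 to 133.4 CPM in WT of batch 2, and to 165.3 to 420.6 CPM and 86.6 to 129.2 CPM in PAD2KO. Fibroblast markers also differed between batches, at 16813 to 22569 CPM and 11359 to 12015 CPM in WT and 16317 to 17884 CPM and 9930.2 to 10778 CPM in PAD2KO. Both sums moved in the direction of the contractile genes in WT, but not all of their members did. Col1a1, Col1a2, Col3a1 and Tcf21 were lower in every WT library of batch 2 than in any of batch 1. The other fibroblast markers, among them Pdgfra and Vim, overlapped. Of the mesothelial markers, Msln, Upk3b, Lrrn4 and Upk1b were lower without overlap, Wt1 overlapped and Krt19 was higher. The part of these shifts in the result was not tested.

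**Figure D4:**
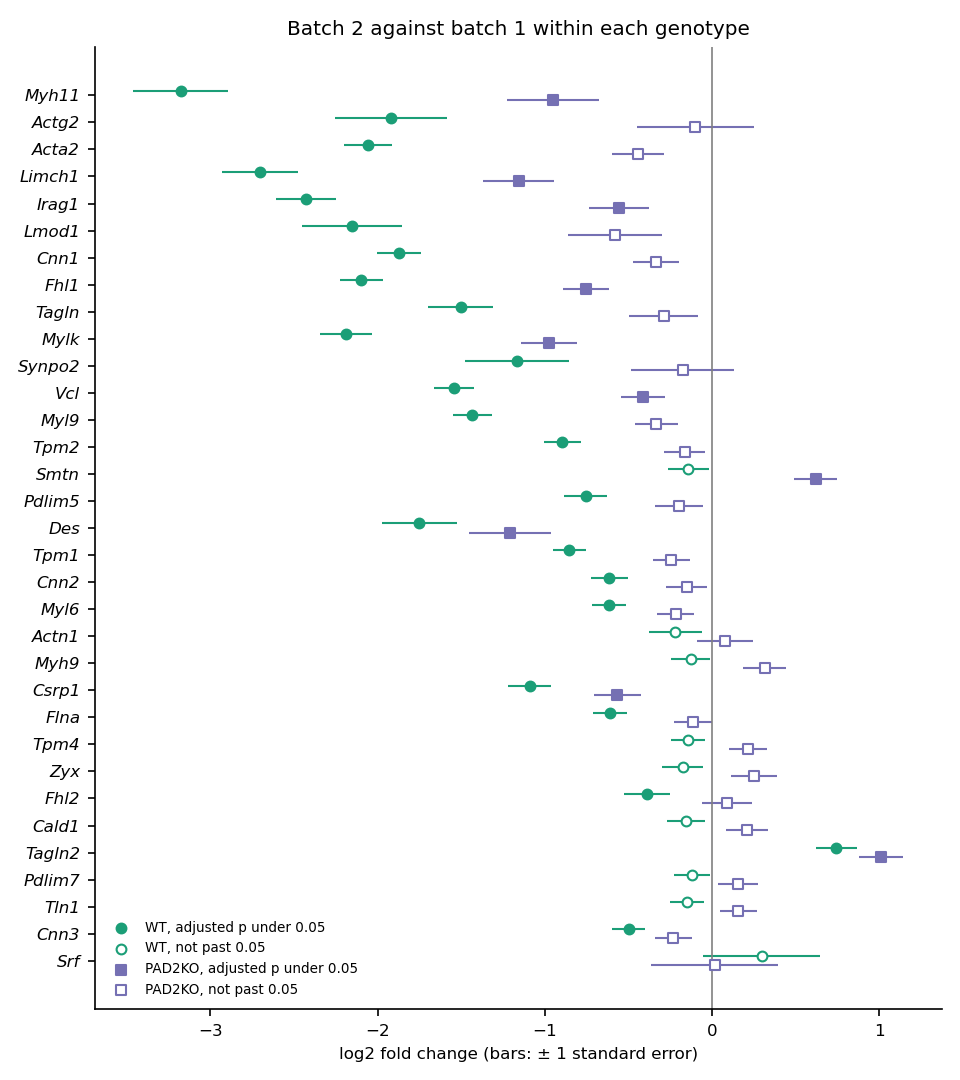
Log2 fold change of batch 2 against batch 1 (horizontal axis) for the 33 tested genes in WT (circles) and PAD2KO (squares), filled where the adjusted p was under 0.05, with bars of ± 1 standard error. Most smooth muscle genes lie left of 0, farther in WT than in PAD2KO, and Tagln2 lies right of 0 in both.

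Several of these genes have a close relative that is expressed in most cells, and the ratio of the pair within a library does not depend on how libraries were scaled. The ratio of the TPM of Myh11 to that of Myh9 was 0.668 to 1.26 in WT of batch 1 and 0.304 to 0.662 in PAD2KO of batch 1. In batch 2 it was 0.0770 to 0.101 in WT and 0.226 to 0.294 in PAD2KO. For Cnn1 over Cnn3 the ratios were 0.741 to 0.952 and 0.561 to 0.921 in batch 1, and 0.284 to 0.378 and 0.683 to 0.772 in batch 2. Both pairs gave their lowest ratios in WT of batch 2, with no overlap with the other groups. Tagln over Tagln2 was 1.83 to 2.34 in WT and 1.83 to 2.15 in PAD2KO of batch 1, against 0.322 to 0.503 and 0.605 to 0.861 in batch 2. Tagln was thus above Tagln2 on the TPM scale in all 6 libraries of batch 1 and below it in all 5 of batch 2. Tagln2 itself was called higher in batch 2 in both genotypes (log2 fold change 0.74 in WT and 1.01 in PAD2KO). Tagln was called lower in WT (-1.50) but not called in PAD2KO (-0.29, adjusted p = 0.392 in edgeR). Fhl1 over Fhl2 was 8.0 to 10.2 and 7.76 to 9.8 in batch 1, and 2.71 to 2.85 and 4.71 to 5.31 in batch 2. Of these 4 pairs, those of Cnn1 and Cnn3 alone overlapped between PAD2KO of batch 2 and the libraries of batch 1.

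**Figure D5:**
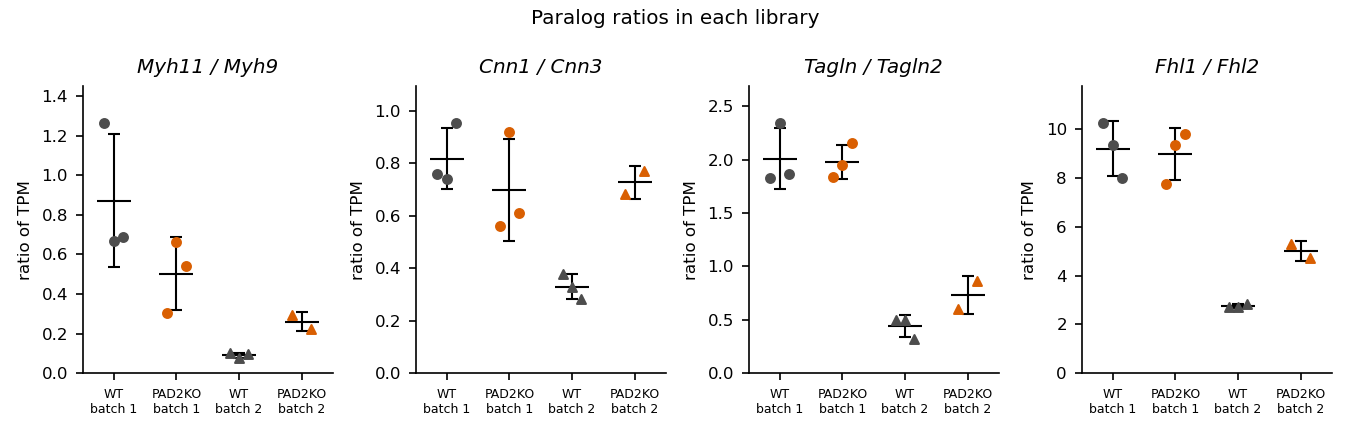
Ratio of the TPM of 4 genes to that of a close relative (vertical axes, linear from 0) in each library. Circles mark batch 1, triangles batch 2, grey WT and orange PAD2KO, with group means and bars of ± 1 SD (n = 3, 3, 3 and 2). The WT triangles are the lowest points in every panel.

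Tropomyosin, caldesmon, smoothelin and myosin light chain kinase genes are known for transcripts of different length in smooth muscle and other cells, so the deposited effective lengths were read as a measure that the choice of genes did not use. For 0 of the 33 genes did the lengths of the 6 libraries of batch 1 and the 5 of batch 2 fail to overlap, as they did for 66 of all genes (0.665%). The longest length over the shortest of a gene among the 11 libraries had a median of 1.15 over the 33 genes and 1.456 over all genes. These medians were not matched for the counts of the genes. The widest spreads were those of Limch1 (5.87), Srf (4.97) and Synpo2 (3.35), which had 689, 153 and 302 counts over all libraries. For Mylk the lengths were 2772 to 3225 bases in WT of batch 1 and 3197 to 3659 bases in WT of batch 2, which overlapped.

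Related genes outside the 35 were read from 5 lists. In batch 1, 0 genes of any list were called between the genotypes. None of the 35 genes is on these lists. The counts of each list are to be read against the shares of all genes given above: 1.40% higher and 1.71% lower between genotypes in batch 2, 0.665% positive and 0.957% negative for the interaction, 11.7% higher and 10.6% lower in batch 2 than in batch 1 in WT, and 9.52% and 9.13% in PAD2KO. Of 7 tested actin, myosin and tropomyosin genes, 1 was higher in PAD2KO of batch 2, the cytoplasmic actin Actb (4261 ± 439 CPM in WT and 5869 ± 569 CPM in PAD2KO, log2 fold change 0.46, SE 0.11, adjusted p = 0.0181), and 0 were lower. For the interaction 0 of the 7 were called, and Myl12a, a non-muscle regulatory light chain, had a value of 0.44 (adjusted p = 0.237). The non-muscle heavy chain Myh10 was lower in batch 2 than in batch 1 in WT (-1.20, SE 0.14, adjusted p = 1.34e-07) and in PAD2KO (-0.55, SE 0.15, adjusted p = 0.0119). Between batches, 0 of the 7 were higher and 2 lower in WT, and 1 higher and 2 lower in PAD2KO.

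Of 29 tested genes of the RhoA, ROCK and MRTF route that controls actin assembly and SRF, 0 were called between genotypes in batch 2 and 0 for the interaction. In WT, 6 of them were lower in batch 2 (Mrtfa, Mrtfb, Ppp1r12a, Ppp1r12b, Ppp1r14a and Prkg1) and 4 higher. Mrtfa, the coactivator that senses free actin, was 287 ± 27 and 165 ± 15.7 CPM in WT (-0.77, SE 0.13, adjusted p = 4.81e-05) and 296 ± 45.2 and 229.9 ± 45.5 CPM in PAD2KO (-0.33, adjusted p = 0.115). Limk2 and the kinase Rock2 had interactions of -0.60 (adjusted p = 0.352) and 0.55 (adjusted p = 0.382). Neither passed the test. In PAD2KO, 5 of the 29 genes were higher in batch 2 and 2 lower (9.52% and 9.13% of all genes).

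Of 42 tested genes of focal adhesions and stress fibres outside the 35, 9 were higher in PAD2KO of batch 2 (among them Actn4, Fermt2, Lpp, Palld, Tns1 and Tns3) and 0 lower, and for the interaction 5 were positive (among them Actn4, Tns1 and Tns3) and 0 negative. Tns1, a tensin that ties actin to integrins, was 166 ± 20.03 CPM in WT of batch 2 and 318 ± 66.3 CPM in PAD2KO (log2 fold change 0.93, SE 0.14, adjusted p = 0.00015), with an interaction of 0.95 (SE 0.18, adjusted p = 0.00472). Tns3, a related tensin, had an interaction of 0.73 (SE 0.16, adjusted p = 0.0139). The median of the 42 genes was 0.24 in batch 2 and 0.35 for the interaction. In WT, 17 of the 42 were lower in batch 2 and 3 higher, and in PAD2KO 7 were lower and 7 higher, against 10.6% lower and 11.7% higher of all genes in WT and 9.13% and 9.52% in PAD2KO.

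Of 17 tested membrane, calcium and other genes of the contractile phenotype, 2 were higher in PAD2KO of batch 2 (Cav1 and Itga8) and 0 lower, and 2 had a positive interaction (Ednra and Itga8). Itga8, an integrin subunit of smooth muscle and myofibroblasts, was 57.3 ± 11.4 CPM in WT of batch 2 and 109 ± 22.4 CPM in PAD2KO (0.91, SE 0.17, adjusted p = 0.00145). The endothelin receptor Ednra was 316 ± 33.7 CPM in WT of batch 1 and 20.2 ± 4.02 CPM in WT of batch 2 (-3.92, SE 0.18, adjusted p = 3.91e-15), and it fell in PAD2KO too (-2.66, SE 0.19, adjusted p = 7.01e-11). Cav1, the caveolar coat gene, had a log2 fold change of 0.72 in batch 2 (SE 0.16, adjusted p = 0.00834). Between batches, 8 of the 17 were lower and 1 higher in WT, and 7 lower and 1 higher in PAD2KO, against the same shares of all genes.

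Of 20 tested TGF-beta and mechanical stress genes of activated fibroblasts, 7 were higher in PAD2KO of batch 2 (among them Amotl2, Ccn1, Ccn2, Loxl2 and Thbs1) and 2 lower (Col3a1 and Tgfbi), and 2 had a positive interaction (Loxl2 and Thbs1). Thbs1, thrombospondin, was 2699.8 ± 318 CPM in WT and 4711 ± 160.3 CPM in PAD2KO (0.80, SE 0.12, adjusted p = 0.000178), with an interaction of 1.02 (SE 0.16, adjusted p = 0.000754). Ccn2, a matricellular gene used as a readout of TGF-beta and YAP activity, was 10.1 ± 2.02 CPM against 22.9 ± 0.698 CPM (1.16, SE 0.30, adjusted p = 0.025). Its interaction missed the threshold (1.32, adjusted p = 0.0603). Loxl2, a collagen crosslinking enzyme gene, had an interaction of 0.63 (SE 0.16, adjusted p = 0.0432). In WT, 12 of the 20 were lower in batch 2 and 2 higher, and in PAD2KO 8 were lower and 4 higher. The median log2 fold change between genotypes in batch 2 was 0.18, 0.14, 0.24, 0.11 and 0.32 over the 5 lists in the order given, and -0.01 over all genes.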

How the data were processed

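The submitters' processing notes list Salmon 1.3.2, fastp, DESeq2 1.46.0 and the build GRCm39 without their roles. The authors deposited estimated counts, TPM and effective gene lengths in bases for 11 libraries, with no molecular identifiers and strand use not stated. Such counts share out ambiguous reads of related genes by a statistical model. Entries without a symbol (23133 of 56065, 3.80% to 6.40% of counts) were left out. The rest were summed per symbol and rounded.

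edgeR 4.0.16 (R 4.3.3; TMM, filterByExpr on genotype, robust quasi-likelihood fit, a mean per genotype and batch over all 11 libraries, common biological coefficient of variation 0.115) tested 9932 genes with Benjamini-Hochberg adjustment at 0.05. CPM used plain totals of named genes. Fits were tested on simulated counts. DESeq2 1.42.0, other scalings and filters, length offsets, a replicate block and 11 refits without a library were alternatives. The 35 genes, the 5 lists and the comparisons were chosen with earlier results of these data known. Every library's value is given for Acta2, Tagln, Cnn1, Myh11, Myl9, Tpm1, Tpm2, Actg2, Srf, Myocd and the 10 next genes by p of the interaction. Up to 3 genes per list were named by the same p, with group means or fold changes only, apart from a listed gene that is not reported here. Others were named after their values were seen.

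WT 5 and WT 6 were the closest pair of replicates (chi-square over degrees of freedom 1.47; other pairs 2.15 to 3.34) but differed beyond counting noise and were kept apart. GENCODE M21 exons on the opposite strand overlap Tagln (Pcsk7), Vcl (Ap3m1), Tln1 (Creb3) and Zyx (Epha1), so reads of these neighbours may be mixed in.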

Additional observations from a re-analysis of the deposited data

Results flagged for a closer look

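Myocd reached 4.03 CPM in WT 4, where the other 5 WT libraries lay at 0 to 0.778 CPM, a gap of 0.807 of the whole range. It was the only such flag among 70 groups of libraries examined, each a gene in a genotype with both batches pooled. The limit is set to flag about 1 in 20 groups drawn from a normal distribution. Pooled batches and counts this low need not follow one, so that rate may not hold here. The flag rests on 5 counts.

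For 12 genes the difference of PAD2KO from WT was more positive in batch 2 than in batch 1 by an interaction term in edgeR, with adjusted p-values of 8.53e-05 to 0.0267. On the log2 scale these differences of differences were 2.23 for Myh11, 1.87 for Irag1, 1.61 for Acta2, 1.55 for Limch1, 1.53 for Cnn1 and 1.34 for Fhl1. They were 1.21 for Mylk, 1.13 for Vcl, 1.10 for Myl9, 0.76 for Smtn, 0.73 for Tpm2 and 0.61 for Tpm1. PAD2KO 6 and 7 were both above WT 5, 6 and 7 in all 12 genes.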

How the results depend on the processing

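The medians over the 33 genes, and the named genes called in the fit reported above, kept their direction under every alternative. Named genes not called in that fit, such as Srf, and calls gained under an alternative were not scored. Of the counts and medians over the 33 genes, 324 values under alternatives stayed within the limits set for a change and 9 moved. Of the values for genes named singly, 856 kept their call and 77 lost it, all with the same sign.

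The count of genes higher in PAD2KO of batch 2 was 15 and ran from 6 (without PAD2KO 7) to 17 when 1 library was left out. The interaction count of 12 ran from 6 to 16 over those refits and was 6 with length offsets. The count lower in batch 2 in PAD2KO (8) was 5 with length offsets and ran from 4 to 10, and its median of -0.20 ran from -0.34 (without PAD2KO 7) to -0.055 (without PAD2KO 6). The causes were not tested.

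Same-numbered WT and PAD2KO libraries did not deviate together (correlations of 0.00152 to 0.0487), so the numbers were not used as pairs. A fit with the replicate number as a block rests only on the numbers 1, 3, 6 and 7, which both genotypes have. WT 4, WT 5 and PAD2KO 2 add nothing to its contrasts. In that fit 1 gene (Myh11) was lower in PAD2KO of batch 1, against 0.0503% of all genes. PAD2KO 2, left without weight, had more Myh11 (293 CPM) than PAD2KO 1 and 3 (138 and 212 CPM). In batch 2, 13 were higher, against 1.12% of all genes, and 12 of them were among the 15. Mylk, Cnn2 and Lmod1 were not called there and Des was. A positive interaction was called for 9 genes, all among the 12, against 0.463% of all genes. Mylk, Limch1 and Tpm2 were not called for it, and the median interaction was 0.77.

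Over all genes, the batch 2 count of 309 was 89 with length offsets, 65 without PAD2KO 7, 202 without WT 7 and 529 with no filter. The interaction count of 161 was 26 with length offsets, 33 without PAD2KO 7, 93 without WT 3, 102 without PAD2KO 3 and 323 with no filter. The batch 1 count of 13 ran from 5 to 20 over the refits, and was 2 with length offsets, 22 with the libraries compared alone, 8 with the block and 58 with no filter. The count over both batches, 19, ran from 8 to 26, and was 2 with length offsets, 30 in DESeq2, 4 with the block or with no batch term and 142 with no filter. Between batches, the WT count of 2212 was 1358 with length offsets, and the PAD2KO count of 1853 was 864 with length offsets, 1219 in DESeq2, 1199 without PAD2KO 6 and 1079 without PAD2KO 7. Depth limits Myocd, Pdlim3, Srf, Lmod1 and Synpo2 most.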

Other observations

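Libraries of a group differed along these genes. PAD2KO 1 was the lowest of the 6 libraries of batch 1 in 23 of the 33 genes (69.7%, against 19.2% of all genes), and PAD2KO 2 the highest in 14 (42.4%, against 16.8%). In batch 1 the sum of the 10 smooth muscle markers was 7472 to 8008 CPM in WT and 5536 to 8749 CPM in PAD2KO. In batch 2 it was 1692 to 2232 CPM in WT and 4642 to 5842 CPM in PAD2KO.

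Acta2 over the cytoplasmic actin Actb, as a ratio of TPM, was 0.833 to 1.10 in WT and 0.57 to 1.16 in PAD2KO of batch 1, and 0.266 to 0.310 in WT and 0.502 to 0.548 in PAD2KO of batch 2. Tpm1 over Tpm4 was 2.94 to 3.06 and 2.69 to 3.0 in batch 1, and 1.79 to 1.86 and 2.02 to 2.04 in batch 2.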
